A study of Sus scrofa with 6 samples.

Results

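Translation initiation factors are the proteins that bring the small ribosomal subunit, the initiator tRNA and a capped mRNA together and set the ribosome at the start codon. A fully grown oocyte transcribes little, so maturation runs on stored mRNA, and the control of initiation at the cap decides when many of these messages are used. The genes described here are all genes of the count files whose pig Ensembl symbol starts with EIF1 to EIF6, without the EIF2AK kinases, which act on EIF2 but are no initiation factors. This rule found 42 of the 25880 genes. EIF2S3, EIF3C, EIF3K, EIF5, EIF5A, EIF2B1 and EIF4EBP3 were not analysed here.

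Stored mRNA was read in pig (Sus scrofa) oocytes at MII, the arrest in the second meiotic division, in 3 malathion libraries and 3 control libraries. Malathion is an organophosphate insecticide that inhibits acetylcholinesterase. Oocytes of the malathion group matured in vitro with 1 mM malathion, added from a DMSO stock, and the labels do not say whether control oocytes received DMSO. All oocytes were taken with their cumulus cells from antral follicles of slaughterhouse ovaries, and Smart-seq2 amplified the polyadenylated RNA. The number of oocytes in a library, and whether replicates were separate cultures, are not given, and the spread that p-values rest on may thus be technical. In such bulk samples fewer cells of a type and less RNA per cell cannot be told apart.

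Total gene counts lay between 25816040 and 42312341 in malathion and between 27105849 and 29471856 in control libraries. A level is given in CPM, the usual scaling of counts to the gene total of a library, and the limit that a count of 0 allows (3 counts) was at most 0.116 CPM in any library. Of 14 oocyte marker genes in the files, 11 to 14 reached 1 CPM in each library. Their sums were 74917, 53829 and 4339 CPM in malathion replicates 1, 2 and 3. In control replicates 1, 2 and 3 they were 69193, 26877 and 3976 CPM. In CPM on library totals the sums were thus far lower in both replicate 3 libraries. Single markers went the other way, with MOS and ZP2 highest in malathion replicate 3 and OOEP in control replicate 3. Of 18 cumulus and granulosa markers, 4 to 10 reached 1 CPM in malathion and 3 to 10 in control libraries. Their sums were 67.8 to 733 CPM and 37.2 to 667 CPM, lowest in the replicate 3 library of each group. VCAN (14.1 to 424 CPM) and KITLG (15.8 to 244 CPM) made up most of each sum. AMH and AMHR2 were at 0 throughout. Both replicate 3 libraries stood apart, with 3735 genes at 1 CPM or more in malathion replicate 3 and 3750 in control replicate 3, against 9213 to 11211 in the other 4 libraries. Control replicate 2 had the most genes at that level, 11211. These libraries carry much of the spread described below.

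The initiation factor genes held 0.768%, 0.875% and 1.199% of the gene counts in malathion replicates 1, 2 and 3, and 0.862%, 1.17% and 0.690% in control replicates 1, 2 and 3. The Wilson 95% interval, which covers counting error only, ran from 0.765% to 0.771% in malathion replicate 1 and was similarly narrow in the other libraries. The groups overlapped. Of the 42 genes, 34, 37 and 21 reached 1 CPM in malathion replicates 1, 2 and 3, and 38, 40 and 20 in control replicates 1, 2 and 3. Over all genes of the files the share at 1 CPM was 35.6%, 37.0% and 14.4% in the malathion and 36.2%, 43.3% and 14.5% in the control libraries. Of all genes 34.9% had 0 counts in every library, while no initiation factor gene did. Among genes with enough counts for the test below, 89.5%, 97.4% and 55.3% of the initiation factor genes reached 1 CPM in malathion replicates 1, 2 and 3, against 85.4%, 88.5% and 34.9% of all such genes. In control replicates 1, 2 and 3 these shares were 100%, 100% and 52.6%, against 87.1%, 93.5% and 35%. In malathion replicate 3 a single gene, EIF5B, held 71.4% of the summed initiation factor level, and in control replicate 3 EIF4E held 42.7%. No transcript lengths were at hand, and longer transcripts collect more reads, so levels of different genes are not ranked against each other.

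**Figure D1:**
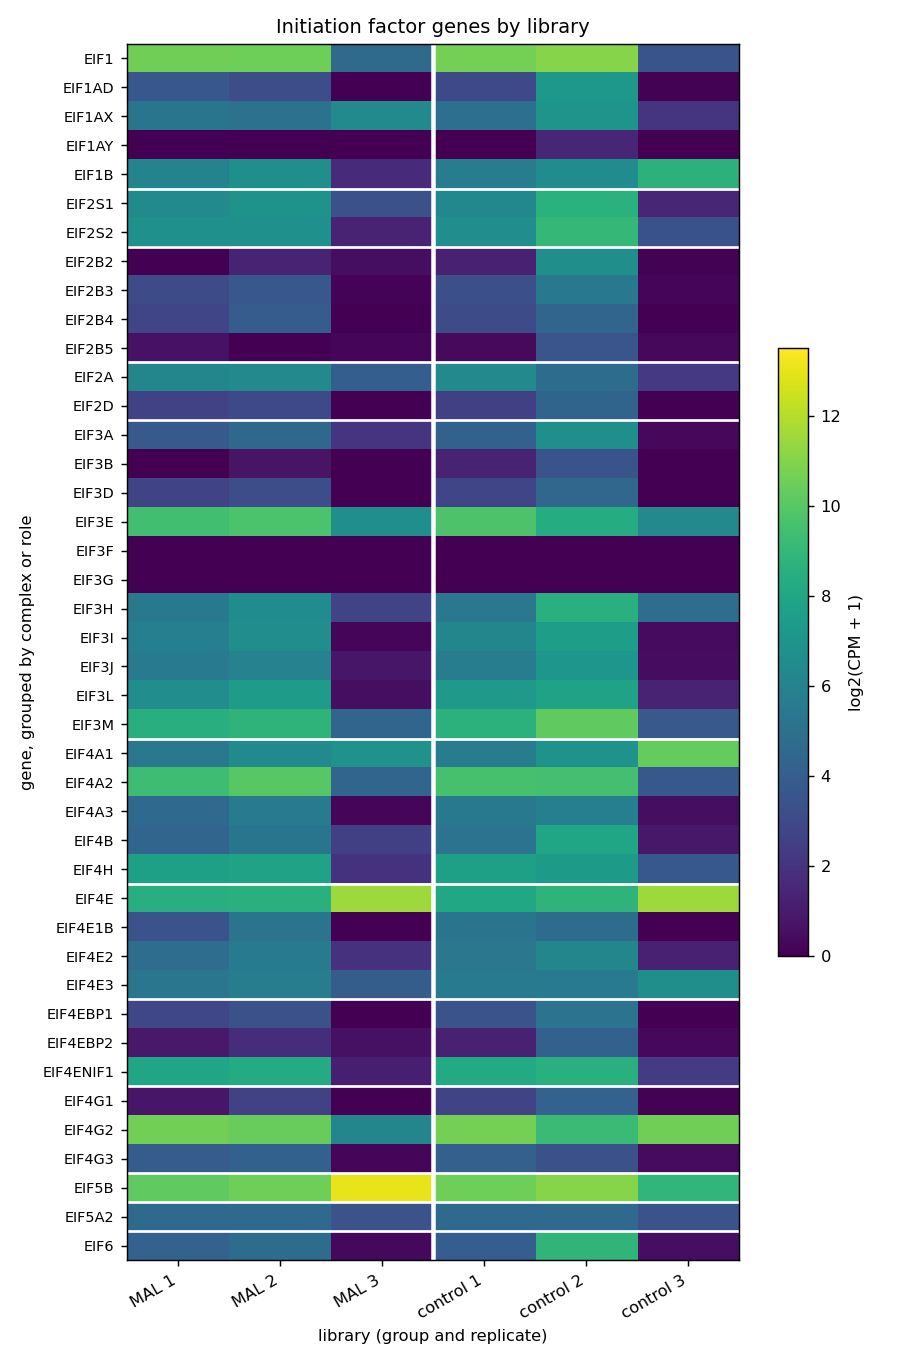
Level of each of the 42 initiation factor genes as log2(CPM + 1), in colour, with genes in rows by complex or role (white lines) and libraries in columns, malathion (MAL) left of control. The replicate 3 columns are dark for most genes but bright for EIF4E. EIF5B is brightest in malathion replicate 3, and EIF4G2 and EIF4A1 are bright in control replicate 3. The column of control replicate 2 is brighter than its neighbours for most EIF2, EIF2B and EIF3 genes.

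Malathion and control libraries were compared to ask what the insecticide does to these stored messages. None of the 38 initiation factor genes with enough counts passed edgeR's quasi-likelihood test, each with an adjusted p of 0.99998, and 0% of the 10678 genes tested passed. DESeq2 also passed 0 of these genes, with 2 at an unadjusted p under 0.05 and 8 without an adjusted p. Before adjustment 1 of the 38 genes, EIF2B2, had a p under 0.05, against 1.03% of all genes tested. Malathion and control values overlapped for all 38 genes, while 0.506% of all genes tested were lower and 0.243% higher in malathion without overlap. EIF1AY, EIF2B5, EIF3F and EIF3G were left untested for low counts. The 95% intervals reached a median of 3.78 log2 units to either side of the fold change for the tested members and 4.36 for all genes tested, so these differences are only loosely bounded.

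Log2 fold changes (malathion minus control) were below 0 for 30 of the 38 genes and above 0 for 8, where 66.3% of all genes tested were below and 33.7% above. The median was −0.86 for the initiation factor genes and −0.33 for all genes tested. These directions rested on control replicate 2. Without that library 29 genes were above 0 and 9 below, and the medians were 0.34 for the initiation factor genes and 0.41 for all genes tested. Without control replicate 3 the split was 3 above and 36 below, and without malathion replicate 3 it was 13 above and 26 below, over 39 genes tested each time. Without malathion replicate 2 it was 4 above and 35 below, also of 39, and the median was −1.61. Without control replicate 2 and both replicate 3 libraries 20 genes were above and 19 below 0, with a median of 0.0043.

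**Figure D2:**
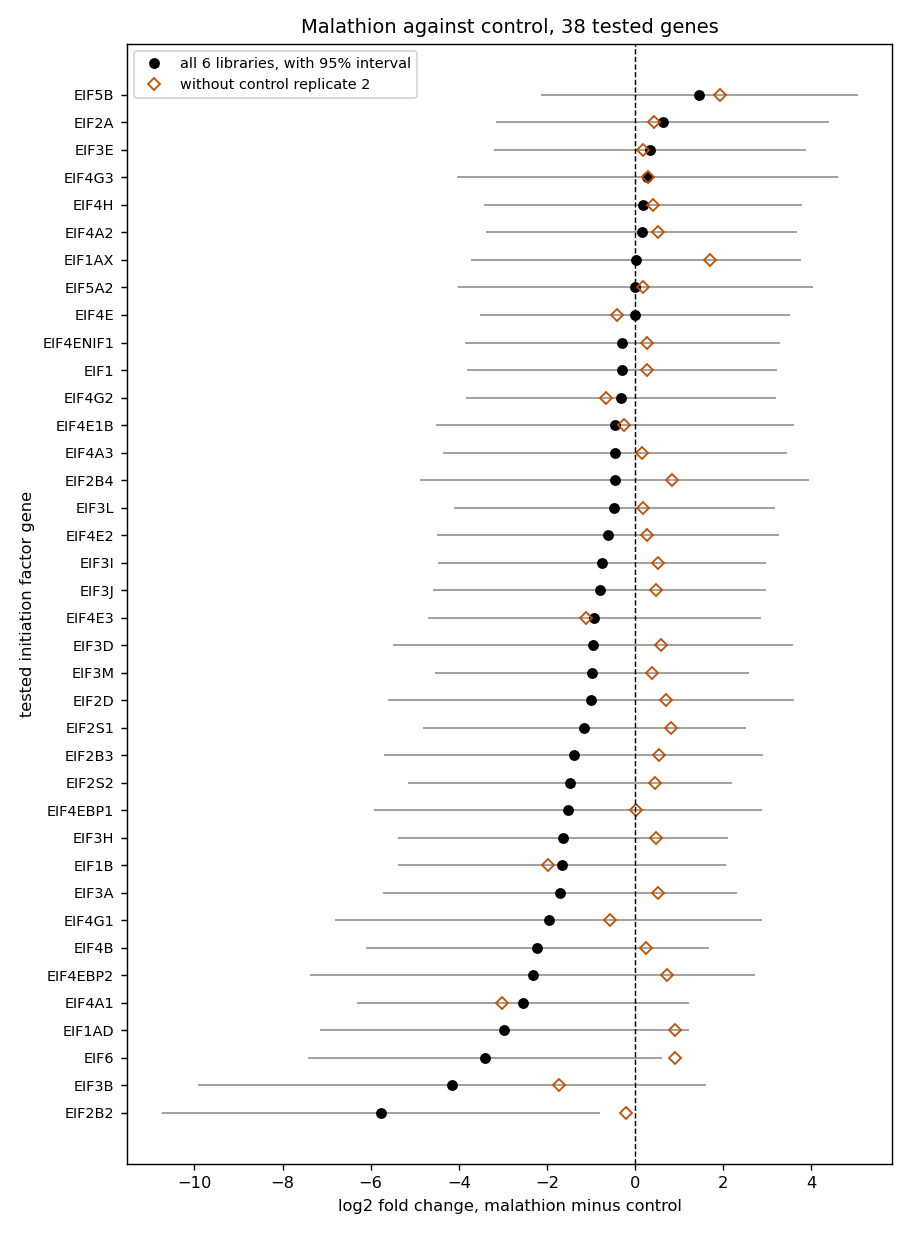
Log2 fold change (horizontal axis, malathion minus control) of the 38 tested initiation factor genes (rows), from the 6 libraries with its 95% interval (filled points and lines) and without control replicate 2 (open diamonds). With all libraries 30 points lie left of 0, and without control replicate 2 29 diamonds lie right of it.

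Control replicate 2 held the highest CPM of 25 of the 38 tested genes (65.8%), and of 54.7% of all genes tested. It stood above malathion replicates 1 and 2 and control replicate 1 at more than 2 times each for 18 of the 38 genes (47.4%), against 28.6% of all genes tested. The opposite was seen for 3 genes (7.89%, and 7.89% of all genes), EIF2A, EIF3E and EIF4G2, which stood there under 1/2 of each of these 3 libraries. Both replicate 3 libraries lay below the other 4 for 29 genes (76.3%, and 83.8% of all genes). They lay above the other 4 for EIF4E and EIF4A1 alone among the 38 (5.26%, against 1.79% of all genes). These patterns were chosen after the values were seen and are descriptions of the libraries. They were read in CPM on library totals, and other scaling factors can change where the replicate 3 libraries stand.

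Cap recognition starts with EIF4E, the protein that binds the mRNA cap. EIF4E (ENSSSCG00000028420) stood at 364, 376 and 2904 CPM in malathion replicates 1, 2 and 3, and at 262, 444 and 2945 CPM in control replicates 1, 2 and 3. The replicate 3 libraries of both groups were high and alike, the other 4 were lower, and the groups overlapped. The means were 1215 ± 1463 CPM in malathion and 1217 ± 1499 CPM in control libraries (SD, n = 3 each), with a log2 fold change of −0.0027 ± 1.79 (SE). Here and below the SE rests on a spread estimated over all genes, so it is not the replicate spread of the gene itself. Leaving out malathion replicate 3 gave −1.72 and leaving out control replicate 3 gave 1.78.

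EIF4E1B is a relative of EIF4E found in vertebrate oocytes, where it takes part in the repression of stored mRNA. EIF4E1B (ENSSSCG00000014052) stood at 10.03, 35.3 and 0 CPM in malathion replicates 1, 2 and 3, and at 36.0, 26.2 and 0 CPM in control replicates 1, 2 and 3. It was thus seen in replicates 1 and 2 of both groups, lowest of these in malathion replicate 1, and had no count in either replicate 3 library. A count of 0 allows up to 0.0709 CPM in malathion replicate 3 and up to 0.102 CPM in control replicate 3. The log2 fold change was −0.46 ± 2.07, −2.05 without malathion replicate 2 and 0.21 without control replicate 1. Reads of EIF4E1B came to 2.76% and 9.41% of those of EIF4E in malathion replicates 1 and 2, and to 13.8% and 5.91% in control replicates 1 and 2. Transcript length cancels when this ratio is compared between libraries, and the groups overlapped. No test of this ratio is given, since EIF4E1B had no count in either replicate 3 library.

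The EIF4E family has other members with roles of their own. EIF4E3 stood at 38.6, 51.4 and 14.7 CPM in malathion replicates 1, 2 and 3 and at 45.7, 48.0 and 105 CPM in control replicates 1, 2 and 3 (log2 fold change −0.92 ± 1.93). EIF4E2, a cap-binding protein that blocks initiation rather than starting it, stood at 27.3, 44.3 and 2.81 CPM and at 39.5, 72.9 and 1.39 CPM in the same order (−0.61 ± 1.98). In CPM on library totals EIF4E3 was highest in control replicate 3, and EIF4E2 was low in both replicate 3 libraries. The value of EIF4E3 was −2.45 with TMM factors, which scale libraries by a trimmed mean of gene ratios, −0.43 without control replicate 3 and −0.059 without both replicate 3 libraries. EIF4E2 turned to 0.28 without control replicate 2 and to 0.061 with TMM factors, so its direction depends on the scaling as well.

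The proteins that hold EIF4E back were measured through 3 genes. EIF4ENIF1 (ENSSSCG00000010030), also known as the transporter of EIF4E, keeps EIF4E on repressed messages and is part of oocyte mRNA storage. It stood at 242, 316 and 1.21 CPM in malathion replicates 1, 2 and 3, and at 307, 372 and 4.24 CPM in control replicates 1, 2 and 3. Replicates 1 and 2 of both groups lay close together and both replicate 3 libraries fell far below them, the reverse of EIF4E. The log2 fold change was −0.29 ± 1.82, from −0.90 without malathion replicate 2 to 0.29 without malathion replicate 3.

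EIF4EBP1 and EIF4EBP2 encode the binding proteins that release EIF4E when MTOR phosphorylates them. EIF4EBP2 stood at 0.930, 2.38 and 0.496 CPM in malathion replicates 1, 2 and 3, and at 1.33, 17.6 and 0.204 CPM in control replicates 1, 2 and 3. EIF4EBP1 stood at 6.39, 9.07 and 0 CPM and at 10.1, 34.5 and 0 CPM in the same order. Both were highest in control replicate 2, with log2 fold changes of −2.33 ± 2.58 for EIF4EBP2 and −1.53 ± 2.24 for EIF4EBP1. Without control replicate 2 these were 0.72 and 0.023, and with TMM factors EIF4EBP2 stood at −0.56.

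Scaffold proteins of the EIF4G family bridge EIF4E, the helicase EIF4A and the ribosome. EIF4G1, the general scaffold, stood at 0.736, 5.33 and 0.0236 CPM in malathion replicates 1, 2 and 3 and at 5.94, 17.8 and 0.0679 CPM in control replicates 1, 2 and 3. Its log2 fold change was −1.96 ± 2.47, from −4.38 without malathion replicate 2 to −0.56 without control replicate 2. In replicates 1 it showed the lowest ratio of malathion to control among the tested members, −1.999 on the log2(CPM + 1) scale, from 19 counts in malathion against 165 in control.

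EIF4G2 (ENSSSCG00000013405), also called DAP5, lacks the EIF4E-binding part and serves initiation that does not use EIF4E. It stood at 1592, 1301 and 73.2 CPM in malathion replicates 1, 2 and 3, and at 1628, 596 and 1499 CPM in control replicates 1, 2 and 3. In CPM on library totals malathion replicate 3 was the low library, while control replicate 3 stood with control replicate 1, and control replicate 2 lay under both. This order holds for the totals only, since TMM factors were far lower in both replicate 3 libraries. The log2 fold change was −0.33 ± 1.80, −2.74 with TMM factors and 0.22 without malathion replicate 3. EIF4G3 stood at 14.3, 17.3 and 0.142 CPM in malathion and at 16.9, 9.04 and 0.305 CPM in control replicates 1, 2 and 3 (0.27 ± 2.20).

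EIF4A helicases unwind the leader of the mRNA. EIF4A1 (ENSSSCG00000017957) stood at 40.9, 87.7 and 120 CPM in malathion replicates 1, 2 and 3, and at 49.9, 117 and 1286 CPM in control replicates 1, 2 and 3. In CPM on library totals only control replicate 3 was far above the others. The log2 fold change of −2.55 ± 1.92 came to −0.0070 without that library and to −3.32 with TMM factors. EIF4A2, a near relative, was low in both replicate 3 libraries, at 626, 1030 and 19.8 CPM in malathion and 770, 731 and 12.4 CPM in control replicates 1, 2 and 3 (0.15 ± 1.80, and −0.64 without malathion replicate 2). Reads of near-identical paralogs can be lost or split in counting, so levels of EIF4A1 and EIF4A2, of EIF1 and EIF1B, and of EIF1AX and EIF1AY are uncertain.

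The helicase cofactor EIF4B stood at 20.3, 36.6 and 4.96 CPM in malathion replicates 1, 2 and 3, and at 33.8, 253 and 0.848 CPM in control replicates 1, 2 and 3 (log2 fold change −2.22 ± 1.99, −0.64 with TMM factors and 0.25 without control replicate 2). EIF4A3, a core protein of the exon junction complex rather than of cap recognition, had values of 23.2, 47.7 and 0.189 CPM in malathion and 42.5, 54.8 and 0.407 CPM in control replicates 1, 2 and 3. EIF4B was high in control replicate 2 and EIF4A3 was low in both replicate 3 libraries. EIF4A3 differed by −0.46 ± 1.99, and by 0.15 without control replicate 2. The cofactor EIF4H, at 205, 222 and 2.91 CPM in malathion and 205, 163 and 12.4 CPM in control replicates 1, 2 and 3, differed by 0.18 ± 1.84, by −0.36 without control replicate 3 and by −0.17 with TMM factors.

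**Figure D3:**
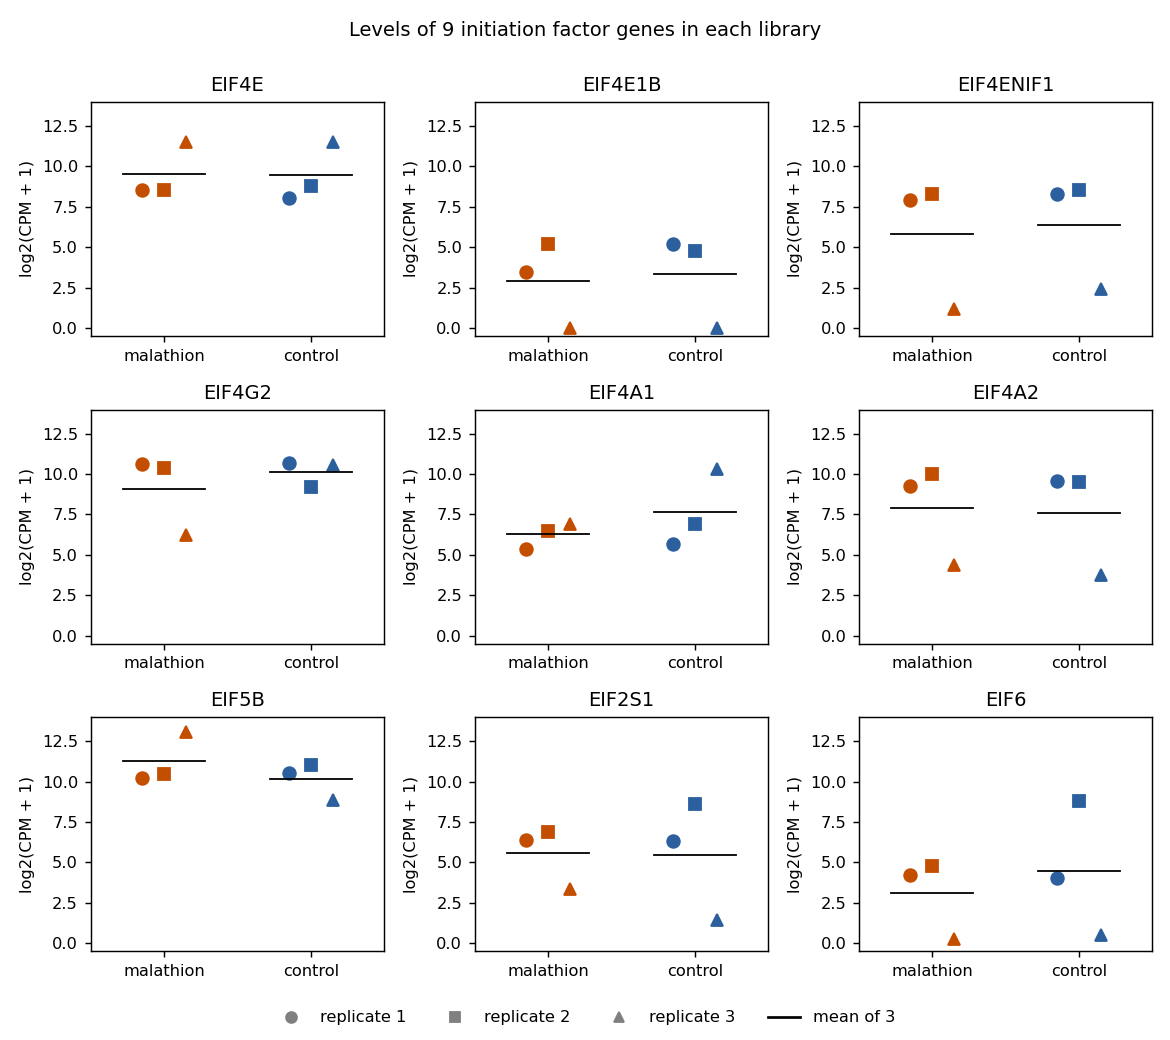
Levels of 9 initiation factor genes as log2(CPM + 1) (vertical axes) in malathion (left) and control (right) libraries, with the symbol giving the replicate number and the line the mean of the 3 log values. EIF4E is at its highest in both replicate 3 libraries, where EIF4ENIF1 is at its lowest, EIF5B is highest in malathion replicate 3, EIF4A1 in control replicate 3, and EIF2S1 and EIF6 in control replicate 2.

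EIF2 carries the initiator tRNA, and phosphorylation of its alpha subunit, the product of EIF2S1, turns down initiation under stress. EIF2S2 (ENSSSCG00000026617), the beta subunit, stood at 110, 110 and 1.47 CPM in malathion replicates 1, 2 and 3, and at 98.7, 507 and 9.47 CPM in control replicates 1, 2 and 3. EIF2S1 (ENSSSCG00000033295) stood at 83.9, 120 and 9.17 CPM and at 79.3, 392 and 1.70 CPM in the same order. In CPM on library totals both subunits shared a high value in control replicate 2 and low values in both replicate 3 libraries. The log2 fold changes were −1.47 ± 1.88 for EIF2S2 and −1.15 ± 1.87 for EIF2S1, and 0.45 and 0.81 without control replicate 2. With TMM factors EIF2S1 stood at −0.066.

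The exchange factor EIF2B reloads EIF2 with GTP. EIF2B2 (ENSSSCG00000002377), its beta subunit, had the smallest p of the initiation factor genes (unadjusted p = 0.0231 in edgeR, adjusted p = 0.99998). It had 0, 42 and 17 counts in malathion replicates 1, 2 and 3, or 0, 1.51 and 0.402 CPM, and 39, 2800 and 2 counts in control replicates 1, 2 and 3, or 1.40, 103 and 0.0679 CPM. The difference lay in control replicate 2, with a log2 fold change of −5.77 ± 2.54 over all libraries, −3.21 with TMM factors and −0.20 without that library. EIF2B3 and EIF2B4 were also highest there, with log2 fold changes of −1.40 and −0.46, and of 0.53 and 0.84 without that library. EIF2B5, the catalytic subunit, had 295 counts in control replicate 2 and no more than 15 elsewhere.

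Some factors can deliver the initiator tRNA without EIF2. EIF2D stood at 5.35, 6.84 and 0 CPM in malathion replicates 1, 2 and 3 and at 4.97, 19.4 and 0 CPM in control replicates 1, 2 and 3 (−1.002 ± 2.35, and 0.71 without control replicate 2). EIF2A ran against most members, at 73.6, 81.4 and 15.1 CPM in malathion and at 80.0, 26.1 and 3.80 CPM in control replicates 1, 2 and 3. It was low in control replicate 2, and its log2 fold change of 0.63 ± 1.93 was 1.34 with TMM factors, 0.096 without control replicate 3 and 1.92 without control replicate 1.

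EIF3 is the largest initiation factor, a complex that coats the small ribosomal subunit. Of 11 EIF3 genes in the files 9 were tested, and 8 of these were below 0 and 1 above, with a median log2 fold change of −0.96. All 8 were highest in control replicate 2, the ninth, EIF3E, in control replicate 1. Without control replicate 2 all of these 8 but EIF3B lay above 0. EIF3B, a core subunit, had the lowest value of the complex (−4.16 ± 2.94), at 0, 18 and 0 counts in malathion and 40, 280 and 0 counts in control replicates 1, 2 and 3, and it stood at −1.72 without control replicate 2 and at −9.90 without malathion replicate 2.

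EIF3E (ENSSSCG00000006033) stood at 690, 807 and 107 CPM in malathion replicates 1, 2 and 3, and at 858, 331 and 82.0 CPM in control replicates 1, 2 and 3. It was under 1/2 of the level of the 3 similar libraries in control replicate 2, where the other tested EIF3 genes peaked. Its log2 fold change was 0.34 ± 1.80, and −0.15 without control replicate 3. EIF3M, named after its values were seen, shows the usual course, at 362, 433 and 20.3 CPM in malathion and 406, 1185 and 12.4 CPM in control replicates 1, 2 and 3, with a log2 fold change of −0.98, and of 0.38 without control replicate 2. The remaining 6 tested EIF3 genes, EIF3A, EIF3D, EIF3H, EIF3I, EIF3J and EIF3L, had log2 fold changes from −1.70 for EIF3A to −0.48 for EIF3L. Without control replicate 2 these lay from 0.19 for EIF3L to 0.59 for EIF3D. EIF3F and EIF3G had 1 count each in all libraries together, in control replicates 1 and 3, so these subunits were not detectable in the counts at this depth.

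Scanning of the leader and choice of the start codon depend on EIF1 and EIF1A. EIF1 (ENSSSCG00000017430) stood at 1529, 1490 and 24.6 CPM in malathion replicates 1, 2 and 3, and at 1660, 2083 and 10.4 CPM in control replicates 1, 2 and 3. In CPM on library totals it was steady in replicates 1 and 2 and far lower in replicates 3 of both groups. It still had 1041 counts in malathion replicate 3 and 307 in control replicate 3. The median initiation factor gene stood at 0.969 and 0.628 CPM in these 2 libraries. Its log2 fold change of −0.30 ± 1.80 was 0.28 without control replicate 2, and 0.063 with TMM factors. EIF1B, a close copy of EIF1 named after its values were seen, had its highest value where EIF1 was lowest, at 68.4, 103 and 2.15 CPM in malathion and 52.4, 95.1 and 400 CPM in control replicates 1, 2 and 3 (−1.66 ± 1.89).

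EIF1AX, the X-linked gene of EIF1A, stood at 36.8, 33.0 and 88.1 CPM in malathion replicates 1, 2 and 3, and at 29.3, 124 and 3.09 CPM in control replicates 1, 2 and 3. It was the member with the highest ratio of malathion to control in replicates 3 (4.45 on the log2(CPM + 1) scale), while over all libraries its log2 fold change was 0.014 ± 1.91. That value was 3.27 with TMM factors, 1.70 without control replicate 2 and −0.58 without malathion replicate 3. EIF1AD, a gene with an EIF1A-like domain, had 4021 counts in control replicate 2 and no more than 300 elsewhere (−2.96 ± 2.13, and 0.90 without control replicate 2). EIF1AY had 46 counts in control replicate 2 and 0 in the other 5 libraries.

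EIF5B is the GTPase that joins the large ribosomal subunit at the start codon. EIF5B (ENSSSCG00000008180) stood at 1179, 1445 and 8556 CPM in malathion replicates 1, 2 and 3, and at 1493, 2097 and 474 CPM in control replicates 1, 2 and 3. In CPM on library totals the replicate 3 libraries went apart, malathion replicate 3 being the highest of the 6 and control replicate 3 the lowest. TMM factors were 0.138 and 0.141 in malathion and control replicates 3, against 2.26 to 3.57 in the other libraries. This order thus holds for the totals only. Mean levels were 3727 ± 4184 CPM in malathion and 1355 ± 820 CPM in control libraries (SD, n = 3 each). The log2 fold change of 1.46 ± 1.83 was the highest of the 38 genes and came to 3.78 with TMM factors and to −0.046 without malathion replicate 3.

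EIF6 keeps free large subunits from joining too early. EIF6 (ENSSSCG00000022864) stood at 17.9, 26.2 and 0.213 CPM in malathion replicates 1, 2 and 3, and at 15.5, 453 and 0.407 CPM in control replicates 1, 2 and 3. Control replicate 2 alone was high. With it the log2 fold change was −3.40 ± 2.05, and without it 0.89. EIF5A2, a paralog of the hypusine-bearing factor EIF5A, stood at 23.2, 23.3 and 10.04 CPM in malathion and 23.4, 23.2 and 9.91 CPM in control replicates 1, 2 and 3. In CPM on library totals it was the steadiest member, with a coefficient of variation of 36.4% over the 6 libraries. TMM factors were 0.138 and 0.141 in malathion and control replicates 3, against 2.26 to 3.57 in the other libraries, so this steadiness holds for the totals only.

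Set side by side by replicate number, the pairs of libraries differed in how far the initiation factor genes spread. In replicates 1 the malathion to control ratio (log2, CPM + 1) stayed within 1 for 34 of the 38 genes (94.1% of all genes tested did), with a median of −0.23 and an SD of 0.55. The exceptions were EIF4G1, EIF4E1B, EIF3B and EIF2B2, each lower in malathion replicate 1, by log2 ratios of −1.999, −1.75, −1.29 and −1.27. In replicates 2 only 17 genes stayed within 1, against 60.8% of all genes tested, with a median of −0.82 and an SD of 1.53. EIF2B2 was lowest there at −5.38 and EIF2A highest at 1.60. In replicates 3, where many genes were near 0 in both libraries, 23 stayed within 1, against 82.1% of all genes tested, with a median of 0 and an SD of 2.03. The extremes were EIF1B at −6.99 and EIF1AX at 4.45.

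**Figure D4:**
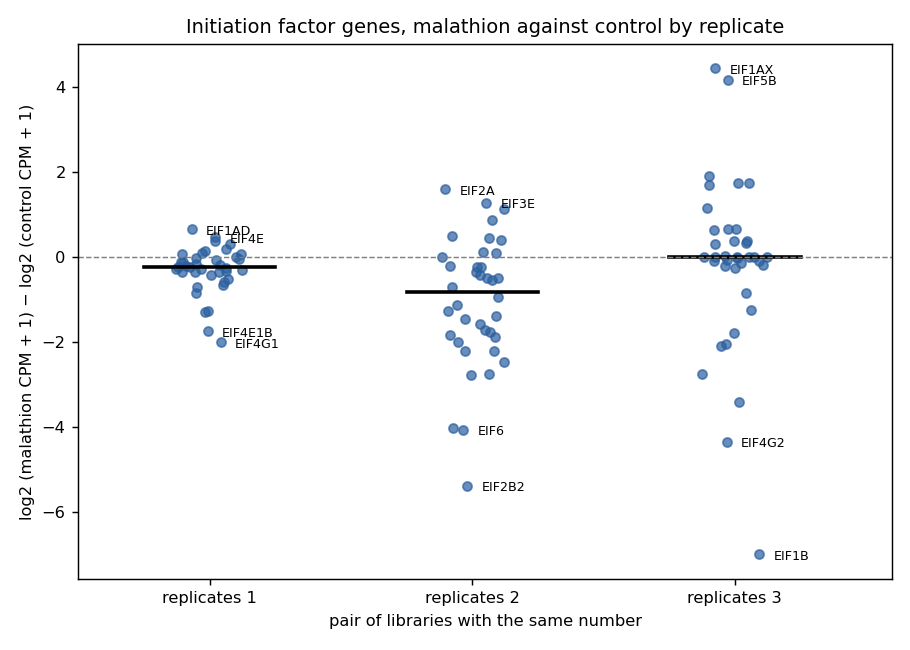
Malathion to control ratio (log2, CPM + 1, vertical axis) for the 38 tested initiation factor genes (points), in each pair of libraries with the same replicate number (horizontal axis), with the median as a black line and the extreme genes named. The points lie close to 0 in replicates 1, mostly below 0 in replicates 2 (median −0.82) and far apart on both sides in replicates 3.

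Partner genes of initiation were counted from fixed lists, and no member passed edgeR's test in either direction. Genes of kinases and phosphatase subunits acting on EIF2, listed together with the kinase regulators DNAJC3, GCN1 and IMPACT, were split 3 above and 5 below 0 of 8 tested (median log2 fold change −0.33). PPP1R15B (−1.49) and DNAJC3 (−1.23) led. PPP1R15B had 13.2 CPM in control replicate 2 against at most 3.14 CPM elsewhere, and DNAJC3 had 41.3 CPM there against at most 14.6 CPM elsewhere. The arms of MTOR and MAP kinase acting on EIF4E, EIF4B and the EIF4E-binding proteins were split 3 to 6 of 9 (−0.13), led by LARP1 (−1.81) and RPS6KB1 (−1.20). LARP1 had 22.4 CPM in control replicate 2 against at most 3.83 CPM elsewhere, and RPS6KB1 had 65.1 CPM there against at most 18.4 CPM elsewhere. For poly(A)-binding proteins and their partners the split was 2 to 6 of 8 (−0.29). PAIP2 and PAIP2B, which hold back the poly(A)-binding protein, had values of −4.06 and −3.31, PAIP2 from 306 CPM in control replicate 2 against at most 9.65 CPM elsewhere and PAIP2B from 516 CPM in control replicate 3 against at most 44.3 CPM elsewhere.

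Repression partners of stored mRNA were split 5 above and 8 below 0 of 13 tested (median −0.098), with −4.14 for GIGYF1, a partner of EIF4E2, and −3.62 for YBX2, an oocyte protein that packs stored mRNA. GIGYF1 had 104 CPM in control replicate 3 against at most 4.76 CPM elsewhere, and YBX2 had 30.7 CPM in control replicate 2 against at most 1.55 CPM elsewhere. Auxiliary initiation and reinitiation factors were split 1 to 11 of 12 (−0.33), with −3.13 for NCBP3, which had 22.9 CPM in control replicate 2 against at most 2.05 CPM elsewhere. The helicase gene DDX3X was the exception at 2.57, from 1567 CPM in malathion replicate 3 against at most 171 CPM elsewhere. All 9 tested genes of elongation and termination lay below 0 (median −1.69), 8 of them highest in control replicate 2. They were led by ETF1, the release factor (−3.69), with 121 CPM in that library and at most 6.34 CPM elsewhere. EEF1D (−2.98) came next, with 30.1 CPM in control replicate 2 and at most 2.84 CPM elsewhere. Over all genes tested 5836 of 10678 were highest in control replicate 2. Without that library, an alternative chosen after seeing the data, each of the 6 list medians turned above 0, from 0.21 for elongation and termination (7 above and 2 below 0) to 0.74 for the MTOR and MAP kinase arms (8 and 1). With TMM factors the medians of the EIF2 kinase list (0.031) and of the repression partners (0.37) turned above 0, and the median of elongation and termination was −0.88 (2 above and 7 below).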

How the data were processed

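Each library was 1 deposited file of read counts per gene, with no normalization by the authors that the values show. Per the submitters' processing notes, STAR 2.5.3a, HTSeq 0.9.1 and DESeq2 1.20.0 were used; their roles, the genome build and the strand setting are not given in the sources used here, so no coordinates are printed and antisense or overlapping genes cannot be told apart. The 5 HTSeq rows of reads given to no gene (36.7% to 42.6% of a file, including 2.45% to 8.37% aligned to more than 1 place) were kept out of totals and tests. A name table gave symbols to 14857 of 25880 identifiers. Members, lists and tests were chosen with earlier results of these data known.

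CPM used the sum of gene rows. The fit of malathion against control used edgeR 4.0.16 under R 4.3.3 with limma 3.58.1, its quasi-likelihood F test on counts, two-sided, filterByExpr (minimum count 10, minimum total 15), Benjamini-Hochberg over the 10678 genes kept, threshold 0.05. Scaling used these totals, so that fold changes rest on the same totals as the printed CPM. TMM factors ran from 0.138 to 3.57, so the choice of scaling matters for these libraries. SEs came from the F statistic, with a spread estimated over all genes (common biological coefficient of variation 1.56). An SE thus does not measure the replicate spread of its own gene. EIF5A2 had an SE of 2.05 at a coefficient of variation of 36.4% over the libraries, and EIF5B had 1.83 at 118%. The code was tested on simulated counts that varied far less between libraries than these data, so that test does not show which changes could be found here. Alternatives were TMM, DESeq2 1.42.0 size factors and Wald test, no filter, a replicate block, and left-out libraries. Levels were to be ordered per length, but no lengths were at hand, and a planned test of the EIF4E1B to EIF4E ratio is not given, because EIF4E1B had 0 counts in both replicate 3 libraries.

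Named genes were 24 fixed symbols where present, in each complex the member with the highest mean CPM and that with the smallest p, members at an unadjusted p under 0.05 or without overlap, and the 2 genes of each partner list with the smallest p. Across genes, deviations from the group means were correlated between libraries with the same number. The r was 0.467, 0.378 and 0.587 for replicates 1, 2 and 3. Across numbers, malathion replicate 2 correlated more with control replicate 1 (r = 0.439) than with control replicate 2, and malathion replicate 1 and control replicate 2 had an r of 0.261. Deviations from a mean cancel within a group, so replicate 3 libraries that stand apart in both groups make replicates 1 and 2 correlate under any numbering. These values thus cannot show whether replicates 1 and 2 are paired by number, and the meaning of the replicate numbers is unknown. The numbers served to set libraries side by side and in the replicate block, and the main fit did not use them.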

Additional observations from a re-analysis of the deposited data

How the results depend on the processing

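No gene, and no initiation factor gene, passed at an adjusted p of 0.05 under any of the 13 alternatives; an unadjusted p under 0.05 was found for 0 to 2 initiation factor genes. The median log2 fold change of the tested initiation factor genes was −0.35 with TMM factors, −0.42 with DESeq2 size factors and −0.42 with DESeq2's Wald test, ranged from −1.61 to 0.34 when 1 library was left out, and was 0.0043 without control replicate 2 and both replicate 3 libraries, a fit in which the lone control library is assumed to vary like the malathion libraries. TMM moved the median of all genes tested to −0.077, against −0.33. With the replicate block 0 genes were called, the median was −0.68, and no call changed. Initiation factor genes with at least 1 count numbered 32 in malathion replicate 3 and 34 in control replicate 3, and 12 in each reached 10 CPM. Over all rows of a file their share was 0.472%, 0.550% and 0.712% in malathion and 0.546%, 0.674% and 0.397% in control replicates 1, 2 and 3, since the total then includes reads given to no gene. DESeq2 gave no p for 1119 genes.

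Of 28 named genes 24 changed sign under at least 1 alternative. TMM factors moved the log2 fold change of 8 of the 28 by more than 1, without a change of sign. EIF1AX came to 3.27 with TMM factors against 0.014 with library totals, EIF5B to 3.78 against 1.46, EIF4G2 to −2.74 against −0.33, EIF4E3 to −2.45 against −0.92, EIF2B2 to −3.21 against −5.77, EIF4B to −0.64 against −2.22, EIF4EBP2 to −0.56 against −2.33 and EIF2S1 to −0.066 against −1.15. With DESeq2 size factors EIF1AX stood at 3.32, EIF5B at 3.77, EIF4G2 at −2.92 and EIF4E3 at −2.55. Signs turned for 4 genes with TMM factors, where EIF4H stood at −0.17, EIF4E at 0.0099, EIF4E2 at 0.061 and EIF1 at 0.063. With DESeq2 size factors EIF4H stood at −0.28, EIF1 at 0.020 and EIF4E2 at 0.031, and with the Wald test at −0.28, 0.020 and 0.031. With the replicate block EIF4G3 stood at −0.063, EIF4H at −0.51, EIF4E at 0.071, EIF1 at 0.20 and EIF2S1 at 0.23. Without both replicate 3 libraries EIF5A2 stood at −0.0030, EIF5B at −0.45, EIF1AX at −1.14, EIF4E at 0.068 and EIF4G2 at 0.38. Without these and control replicate 2, EIF5A2 stood at −0.0076, EIF2A at −0.046, EIF4G3 at −0.099, EIF5B at −0.19, EIF3E at −0.20, EIF2S2 at 0.16, EIF2D at 0.30, EIF4EBP2 at 0.31, EIF2S1 at 0.36, EIF4A1 at 0.37, EIF4E at 0.50, EIF1AD at 0.50 and EIF6 at 0.51.

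When 1 library was left out, the log2 fold change ranged from −0.88 to 0.28 for EIF1, from −3.64 to 0.90 for EIF1AD, from −0.58 to 1.70 for EIF1AX, from −1.61 to 0.71 for EIF2D, from −1.76 to 0.81 for EIF2S1, from −2.04 to 0.45 for EIF2S2, from −0.15 to 1.37 for EIF3E and from −0.64 to 0.71 for EIF4A2. It ranged from −1.47 to 0.15 for EIF4A3, from −2.92 to 0.25 for EIF4B, from −1.72 to 1.78 for EIF4E, from −2.05 to 0.21 for EIF4E1B, from −1.33 to 0.28 for EIF4E2, from −2.22 to 0.023 for EIF4EBP1, from −3.15 to 0.72 for EIF4EBP2 and from −0.90 to 0.29 for EIF4ENIF1. Likewise it ranged from −0.85 to 0.22 for EIF4G2, from −0.29 to 1.18 for EIF4G3, from −0.36 to 0.75 for EIF4H, from −0.31 to 0.30 for EIF5A2, from −0.046 to 1.92 for EIF5B and from −4.11 to 0.89 for EIF6.
Where these signs turned, the cause was not tested, and no value had passed the test. EIF3B and EIF2B5 had at most 280 and 295 counts in any library, and EIF3B had 0 counts in malathion replicate 3, the library with the most gene counts. A count of 0 allows up to 0.116 CPM in the library with the fewest.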
